A study of Arabidopsis thaliana with 22 samples.

Results

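The autophagy genes described here are the 8 probe sets of the array that stand for 1 gene with an ATG symbol and a mean intensity of at least 40 over all arrays, out of 22746 probe sets that are not controls and 13513 that are annotated to 1 gene. They are ATG3 and the ATG8 family members ATG8B, ATG8C, ATG8D, ATG8E, ATG8F, ATG8G and ATG8H. No probe set with an ATG symbol fell under a mean of 40, the lowest member being ATG8H at 43.8 and the next ATG8B at 48.2. ATG8E was singled out with earlier results of these data known, so its own differences between hours are descriptions that accompany the test across all probe sets, not independent evidence. The same holds for every count of members that includes ATG8E, also where the share of all tested probe sets stands beside it. Autophagy genes that the platform annotation does not name singly were not analysed here.

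Leaves of Arabidopsis thaliana Col-0 at growth stage 3.90 were sampled at 0, 1, 2, 4, 8, 12, 13, 14, 16, 20 and 24 h of a cycle of 12 h light and 12 h dark, with 20 plants pooled per sample. No mutant or treatment was compared, and all samples share genotype, tissue and stage. Each hour had 2 samples, 1 in each of 2 replicate series, which gave 22 Affymetrix ATH1 arrays. The labels do not say that the series were grown separately, so p-values measure only the spread between these samples, which may be technical. Whether 0 h opens the light or the dark period is not spelled out in the labels, so hours are given as labelled. The series 1 titles hold numbers that read like clock times, with 0 h in the evening and 12 h in the morning. Read so, 1 to 12 h would fall in the night, but no label says this in words. For the 8 h and 16 h arrays an age label reads 5 h and 14 h.

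Autophagy carries cytoplasmic material in double-membrane vesicles to the vacuole for breakdown, and in plants it recycles nutrients when carbon or nitrogen is short and in ageing leaves. ATG8 is a small ubiquitin-like protein that is attached to a membrane lipid on the growing vesicle, where it helps the vesicle expand and binds cargo receptors. ATG3 is the conjugating enzyme that hands ATG8 to that lipid. Arabidopsis has a family of ATG8 genes but a single ATG3 gene.

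Array medians lay between 37.6 and 44.7. The leaf antenna genes LHCB4.1 and LHCB4.2 stood at medians of 3666 and 1879 over the arrays, while the root genes PYK10 and EXPA7 did not exceed 19.6 and 23.5. These were the 4 markers of 17 with a named probe set. Bacterial control probe sets reached 29.2, so lower intensities are not clearly above background. A 3' to 5' ratio of the actin probe sets, a sign of RNA quality, was 1.85 ± 0.28 (SD, n = 11) in series 1 and 3.20 ± 1.21 (SD, n = 11) in series 2. It was highest, at 6.31, 4.15 and 4.01, in the 1 h, 24 h and 12 h arrays of series 2. The 24 h array of series 2 also had the highest array median, 44.7. Its title ends in the word repeat, and the labels used here do not say what was repeated.

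ATG8E (AT2G45170) showed a plateau from 1 to 12 h. Its intensities in series 1 and 2 were 79.4 and 100.8 in the 0 h arrays, 462.8 and 327.2 in those of 1 h and 451.1 and 320.7 in those of 2 h. The 4 h arrays had 338.4 and 355.5, the 8 h arrays 314.1 and 310.6 and the 12 h arrays 441.4 and 302.8. All 10 arrays from 1 to 12 h thus lay above both 0 h arrays. The share of all tested probe sets for which this held was not taken.

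After 12 h ATG8E dropped within the next hour and recovered in part. The 13 h arrays had 34.7 and 69.0, the 14 h arrays 124.8 and 141.0 and the 16 h arrays 118.8 and 263.7. The 20 h arrays had 140.2 and 163.8 and the 24 h arrays 80.2 and 91.7, which is back in the range of the 0 h arrays. The plateau arrays ran from 302.8 to 462.8 and the 13 to 24 h arrays from 34.7 to 263.7, without overlap. Of the 8 members this held for ATG8E alone, and it held for 0.396% of all tested probe sets.

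In the order of its mean levels on the log2 scale, ATG8E was highest at 1 h, followed by 2, 12, 4 and 8 h, then by 16, 20 and 14 h, and last by 0, 24 and 13 h. Neighbours in that order had overlapping arrays except 4 and 8 h, 8 and 16 h, 14 and 0 h, and 24 and 13 h. The largest step between neighbours was 0.80 on the log2 scale, between 8 and 16 h, followed by 0.76 between 24 and 13 h. The lowest array, 34.7, still lay above the bacterial controls. In leaf tissue as a whole, fewer cells with the transcript and less transcript per cell cannot be told apart.

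**Figure D1:**
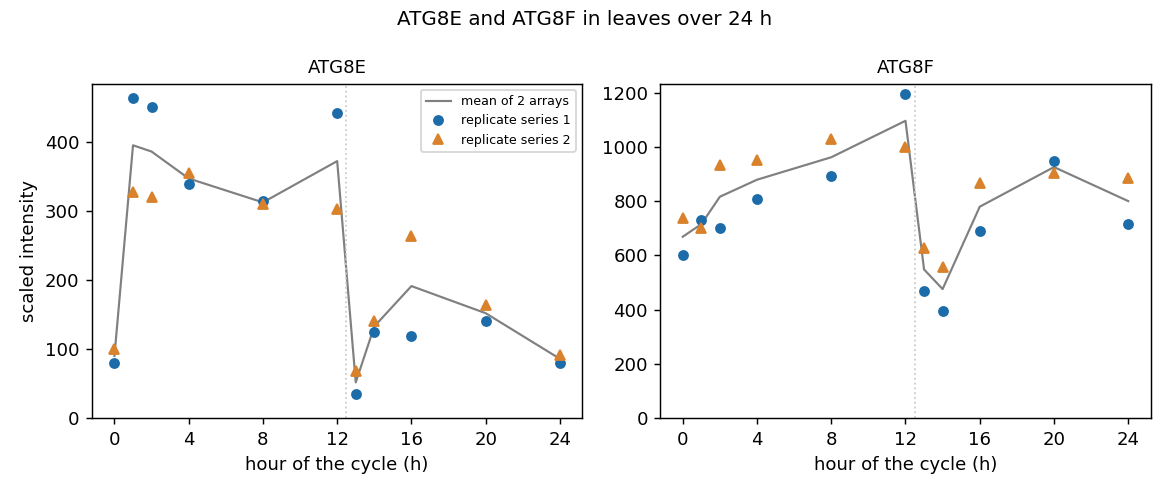
Scaled intensity (linear, from 0) of ATG8E and ATG8F against the hour of the cycle, with 1 point per array (circles series 1, triangles series 2), a line through the means of 2 arrays and a dotted line between 12 and 13 h. ATG8E steps from 79.4 and 100.8 at 0 h to a plateau between 302.8 and 462.8 at 1 to 12 h and falls to 34.7 and 69.0 at 13 h, while ATG8F climbs to 1193 and 999 at 12 h, is lowest at 14 h and is back at 946 and 905 by 20 h.

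On the scale log2(value + 4.01), ATG8E was higher over 1 to 12 h than at 0 h by 1.95 ± 0.26 (SE; 10 arrays against 2; limma adjusted p = 0.000405). It rose in both series, by 2.26 in series 1 and 1.64 in series 2, and it was 1 of 8 members higher in this comparison, against 4.42% of all tested probe sets. ATG8F, at 0.40 ± 0.17 (limma adjusted p = 0.175), passed with the replicate number as a block (limma adjusted p = 0.0491), which made 2 of 8. The share of all tested probe sets was not taken with the block. The other 6 members had differences between -0.11 ± 0.19 for ATG8D and 0.28 ± 0.17 for ATG8C. This comparison was added after seeing the data.

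Taken hour by hour against 0 h, ATG8E was higher by 2.07 ± 0.34 (SE, n = 2; limma adjusted p = 0.00528) at 1 h, 2.04 at 2 h, 1.91 at 4 h, 1.76 at 8 h and 1.98 at 12 h. At 1, 2, 4 and 8 h it was 1 of 8 members that rose, where 1.5%, 0.777%, 0.725% and 3.6% of all probe sets rose. As the member counted is the gene that was singled out, these counts are descriptions only. The single hours rest on few arrays. Without the series 1 array of 0 h the calls at 1, 2, 4 and 8 h were lost (limma adjusted p between 0.0663 at 8 h and 0.113 at 2 h). Single calls were also lost without the series 1 arrays of 1 h (adjusted p = 0.0989), 2 h (0.205) or 4 h (0.110). The same happened without the series 2 arrays of 0 h (adjusted p = 0.0504 at 2 h and 0.0617 at 4 h), 4 h (0.0731) or 8 h (0.0507), while the log2 differences stayed between 1.59 and 2.32.

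At 12 h against 0 h, 2 of 8 members were higher and none lower, with 8.22% of all tested probe sets higher and 7.55% lower. At an unadjusted p under 0.05 in limma, 1 member was lower. ATG8F (AT4G16520), another carrier of the lipid-linked ATG8 function, had 600.6 and 737.4 in the 0 h arrays, 731.0 and 699.6 in those of 1 h and 699.4 and 933.3 in those of 2 h. The 4 h arrays had 808.1 and 950.0, the 8 h arrays 894.2 and 1029.5 and the 12 h arrays 1193.3 and 999.1, with its highest array that of series 1 at 12 h. Its difference at 12 h was 0.71 ± 0.21 (SE, n = 2; limma adjusted p = 0.0332) and ATG8E's was 1.98 ± 0.34 (limma adjusted p = 0.000772). The call for ATG8F was lost without any 1 of the 0 h or 12 h arrays, with differences of 0.56 and 0.86 without 0 h series 1 and 2, and of 0.58 and 0.84 without 12 h series 1 and 2 (limma adjusted p between 0.0528 and 0.222). It was also lost without a filter on low probe sets (adjusted p = 0.0515). ATG8D stood at 151.9 and 89.6 against 140.1 and 208.2 at 0 h, a difference of -0.53 ± 0.24 (limma adjusted p = 0.154). Without 12 h series 1 it was lower (-0.90; limma adjusted p = 0.0326).

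From 12 h to 13 h, 2 of 8 members fell and none rose, where 3.39% of all tested probe sets fell and 2.39% rose. No member rose at an unadjusted p under 0.05 in limma either. ATG8E fell by 2.80 ± 0.34 (SE, n = 2; limma adjusted p = 0.000116) and ATG8F by 1.00 ± 0.21 (limma adjusted p = 0.0107). ATG8F had 470.1 and 626.7 in the 13 h arrays and 395.5 and 556.6 in those of 14 h, when it fell by 1.21 ± 0.21 from its 12 h level on the log2 scale (SE, n = 2; limma adjusted p = 0.00235). All 4 of these arrays lay below both 0 h arrays except that of series 2 at 13 h. The call for ATG8F at 13 h was lost without 12 h series 1 (-0.88; adjusted p = 0.0860) or 13 h series 1 (-0.80; adjusted p = 0.0861). The 12 h arrays are shared by the comparisons with 0 h and with 13 h, so a high value at 12 h enters both.

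Against 12 h, ATG8E was lower at 14 h (-1.44 ± 0.34), 20 h (-1.25 ± 0.34) and 24 h (-2.04 ± 0.34; SE, n = 2; limma adjusted p = 0.0147, 0.0200 and 0.000629), but at 16 h, with -1.03 ± 0.34, it did not pass (adjusted p = 0.0689). At 14 h ATG8E and ATG8F were 2 of 8 members lower (5.11% of all tested probe sets), at 16 h ATG8D was 1 of 8 (5.44%), and at 20 and 24 h ATG8E was 1 of 8 (8.35% and 8.07%). With the replicate block ATG8C was also lower at 14 h (-0.51; adjusted p = 0.179 without the block and 0.0205 with it). At 16 h the 2 series were far apart, with differences of -1.86 and -0.20, and ATG8E was lower there with the replicate block (adjusted p = 0.0376). The same held without 16 h series 2 (-1.59; adjusted p = 0.0138) or either 13 h array (adjusted p = 0.0444 and 0.0442). The calls at 14 and 20 h were lost without 12 h series 1 (-1.17 and -0.98; adjusted p = 0.127 and 0.155). They were lost as well without either array of the hour itself (adjusted p = 0.0966 and 0.0565 at 14 h, and 0.112 and 0.0584 at 20 h).

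Averaged over each part of the cycle, 4 of 8 members were lower at 13 to 24 h than at 1 to 12 h and none was higher, where 13.1% of all tested probe sets were lower and 10.8% higher. No member was higher at an unadjusted p under 0.05 in limma. The median difference was -0.29 over the 8 members and -0.01 over all 13648 tested probe sets. ATG8E had a difference of -1.68 ± 0.15 (SE; n = 10 arrays a side; limma adjusted p = 1.3e-06), with -2.09 in series 1 and -1.27 in series 2. ATG8D fell by 0.64 ± 0.11 (limma adjusted p = 0.000443), ATG8H by 0.58 ± 0.14 (limma adjusted p = 0.00556) and ATG8F by 0.37 ± 0.10 (limma adjusted p = 0.00988). The standard errors measure the spread between the 2 arrays of an hour, not that between hours. Read with the hours of the age label, ATG8F no longer passed (-0.33; adjusted p = 0.0768).

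The other 4 members did not pass. ATG8C had a difference of -0.21 ± 0.10 (limma adjusted p = 0.140), and with the block it passed (adjusted p = 0.0180). ATG3 had -0.14 ± 0.08 (adjusted p = 0.239), ATG8G -0.06 ± 0.10 (adjusted p = 0.723) and ATG8B 0.12 ± 0.13 (adjusted p = 0.570). Within the series, ATG3, ATG8G and ATG8B each had a value below 0 in series 1 and above 0 in series 2. In a test of the interaction, the change between the parts of the cycle passed as different between the series for none of the members and for 2.03% of all tested probe sets. ATG8E came nearest, at 0.82 ± 0.21 (limma adjusted p = 0.0620). Series 2 minus series 1 was above 0 for every member, with the smallest value 0.16 ± 0.28 (SE) for ATG8H. The change was thus more negative or less positive in series 1 throughout. The share of all tested probe sets above 0 was not taken. For actin the ratio averaged 2.78 ± 1.43 over the 10 arrays of 1 to 12 h and, over the 10 of 13 to 24 h, 2.36 ± 0.77 (SD), and all 4 calls held without the 3 arrays of highest ratio.

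**Figure D2:**
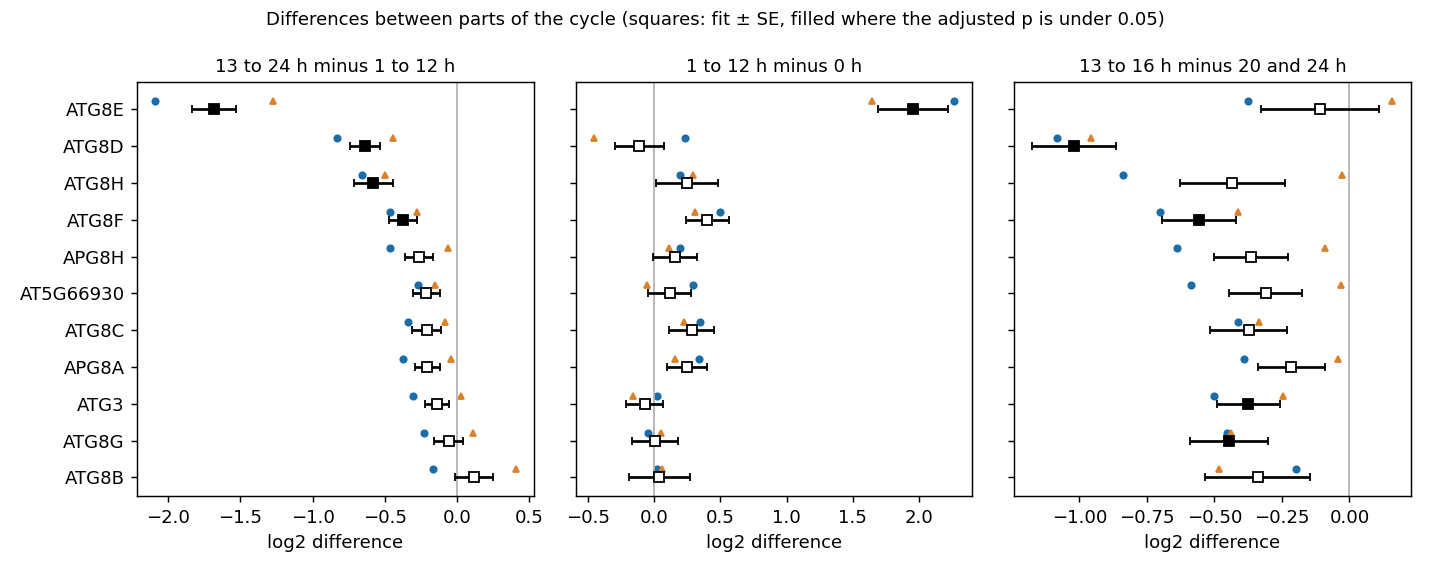
Log2 differences of the 8 members and 3 related genes between parts of the cycle (squares with SE from the fit, filled where the limma adjusted p is under 0.05; circles and triangles are series 1 and 2 alone). ATG8E stands at -1.68 and 1.95 in the first and second panels, with the other genes between -0.64 and 0.40, but at -0.11 in the third, where ATG8D is at -1.02.

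The distance of the other members from ATG8E was taken as the log2 difference from ATG8E within each array. Because ATG8E was singled out for its fall, and 99.3% of all tested probe sets differed from it in this measure, the values are a description and say nothing particular about the members. Between 1 to 12 h and 13 to 24 h, the difference from ATG8E changed least for ATG8D (1.04 ± 0.20, SE) and ATG8H (1.10 ± 0.21). ATG8F followed at 1.31, and ATG8B was farthest from ATG8E at 1.80 ± 0.21.

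ATG8D (AT2G05630) had a trough at 14 and 16 h rather than at 13 h. The 13 h arrays had 85.8 and 104.7, the 14 h arrays 63.5 and 80.7 and the 16 h arrays 53.7 and 68.7. The 20 h arrays were at 137.6 and 142.3 and the 24 h arrays at 153.1 and 193.1. At 16 h it was lower than at 12 h by 0.90 ± 0.24 (SE, n = 2; limma adjusted p = 0.0258). Its 4 arrays of 14 and 16 h were its lowest, all below the lowest of the 1 to 12 h arrays at 89.6. A share of all tested probe sets was not taken for this.

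ATG8H (AT3G06420), an ATG8 form that lacks the tail cut from most others, was near the limit of measurement in its trough. The 2 h arrays had 62.0 and 71.1 and the 4 h arrays 56.8 and 62.0, but the 13 h arrays had 25.8 and 26.9 and the 14 h arrays 20.0 and 40.1. Both 13 h arrays, 1 of 14 h and 1 of 16 h lay below the highest bacterial control, and the size of its difference between the parts of the cycle went from -0.58 to -0.32 with a pseudocount equal to the median. At 13 h against 12 h its difference of -0.79 ± 0.30 did not pass (SE, n = 2; limma adjusted p = 0.167).

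ATG8C, ATG8G, ATG8B and ATG3 had narrower ranges. ATG8C ran from 146.8 at 14 h in series 1 to 294.8 at 4 h in series 2, and ATG8G from 51.0 at 13 h in series 1 to 100.9 at 20 h in series 2. ATG8B ran from 30.7 to 75.3, with its 2 highest arrays those of series 2 at 20 and 24 h. ATG3, the gene for the conjugating enzyme, ran from 88.8 at 13 h in series 1 to 154.5 at 24 h in series 2. Their ranges of hour means were 0.51 for ATG3, 0.57 for ATG8C, 0.63 for ATG8B and 0.69 for ATG8G on the log2 scale, below the median range of 0.78 over all tested probe sets.

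**Figure D3:**
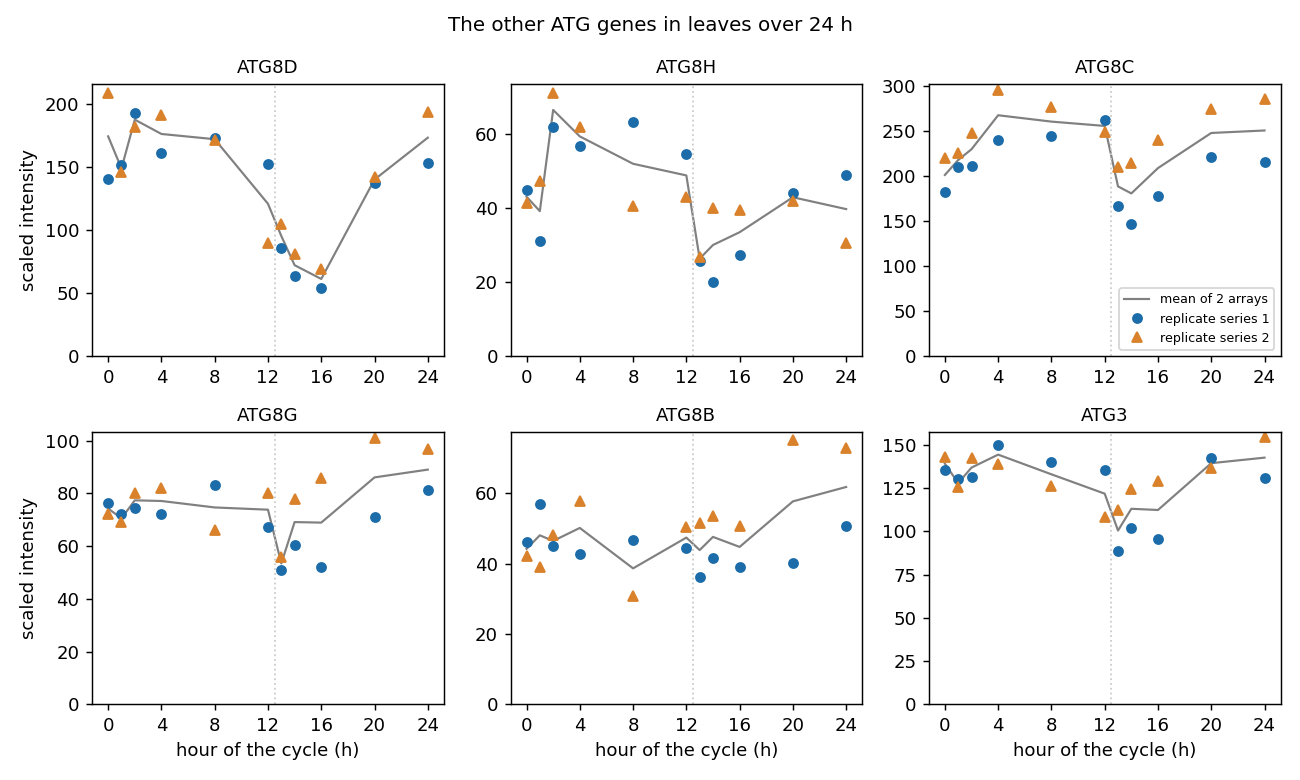
Scaled intensity (linear, from 0) of ATG8D, ATG8H, ATG8C, ATG8G, ATG8B and ATG3 against the hour of the cycle, with 1 point per array, a line through the means of 2 arrays and a dotted line between 12 and 13 h. ATG8D is lowest at 16 h (53.7 and 68.7), ATG8H, ATG8G and ATG3 have their lowest mean at 13 h and ATG8C at 14 h, and series 1 lies below series 2 in each panel at 13, 14 and 16 h.

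Low mean levels of the members at 13 to 16 h were noticed in the data, and a comparison with 20 and 24 h was then added. The mean log2 level of all 8 members was below that at 12 h at 13, 14 and 16 h, where 55%, 51.9% and 51.9% of all tested probe sets were lower. For ATG8B the differences were only -0.12, -0.0016 and -0.084 (each ± 0.30, SE, n = 2) at these hours. In series 2 alone the lower level did not hold for every member. At 13, 14 and 16 h ATG3 lay above its 12 h level there by 0.05, 0.19 and 0.24 on the log2 scale, ATG8B by 0.03, 0.08 and 0.0026, ATG8D by 0.22 at the first hour only and ATG8G by 0.09 at the last only. Compared with 20 and 24 h, 4 of 8 members were lower at 13 to 16 h, against 12.3% of all tested probe sets. ATG8D was lower by 1.02 ± 0.15 (SE; 6 arrays against 4; limma adjusted p = 0.000151) and ATG8F by 0.56 ± 0.14 (limma adjusted p = 0.00797). ATG8G was lower by 0.45 ± 0.15 and ATG3 by 0.37 ± 0.12 (limma adjusted p = 0.0371 and 0.0291). With the replicate block ATG8C was lower too (-0.37 ± 0.14 and adjusted p = 0.0744 without the block, adjusted p = 0.0055 with it), and so was the related gene APG8H (-0.36; adjusted p = 0.0394 with the block). ATG8E differed by -0.11 ± 0.22 (limma adjusted p = 0.780). The median was -0.40 over the members and -0.06 over all tested probe sets.

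The series lay apart at these hours, and the count rested in part on a few arrays. At 13, 14 and 16 h, series 1 lay below series 2 in all 8 members, while 45.4%, 49.1% and 52.5% of all tested probe sets were lower in series 1 at these hours. At the other hours between 2 and 7 of the 8 members were lower in series 1. The count of 4 went to 2 without the series 1 array of 13, 14 or 16 h or the series 2 array of 20 or 24 h, each left out alone. It was 2 with equal array medians and 1 without the 3 arrays of highest actin ratio, where ATG8D remained.

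**Figure D4:**
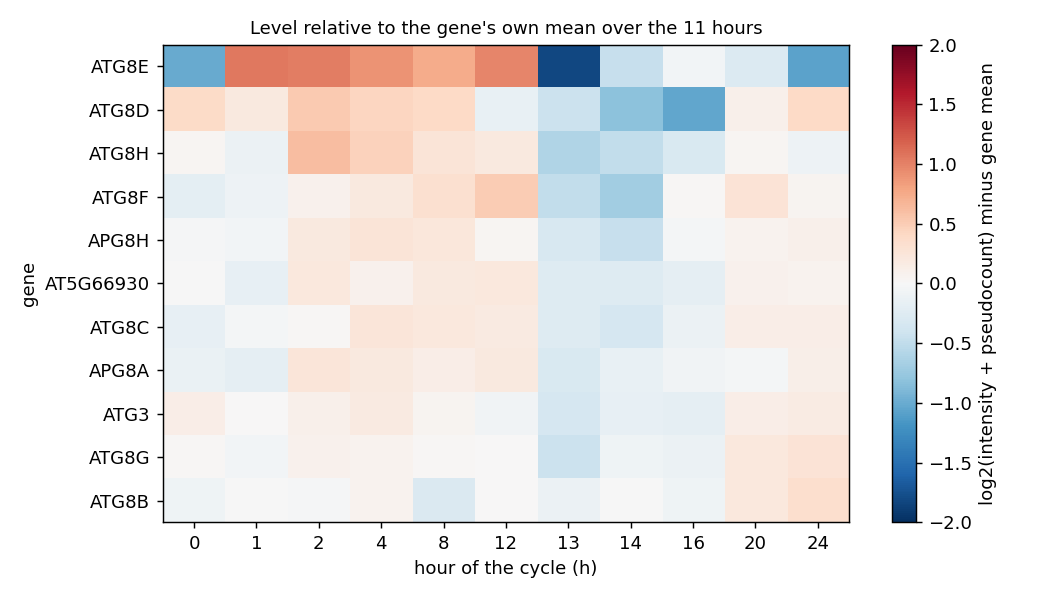
Colour scale of the log2 level of the 8 members and 3 related genes at each of the 11 hours, relative to the gene's own mean over the hours (red above, blue below). ATG8E is between 0.75 and 1.06 above its mean at 1 to 12 h and 1.83 below it at 13 h, and every row is below its mean at 13 h.

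Over the whole time course, 3 of 8 members changed, where 26.8% of all tested probe sets did. These were ATG8E (limma adjusted p = 3.4e-05; range of hour means 2.89 on the log2 scale), ATG8D (adjusted p = 0.000601; range 1.56) and ATG8F (adjusted p = 0.00926; range 1.21). ATG8H, with a range of 1.21, had an adjusted p of 0.0752. With the replicate block 5 of 8 changed, ATG8H and ATG8C being the added members (limma adjusted p = 0.0455 and 0.0239). The share of 26.8% is from the fit without the block, and none was taken with it. A daily wave with a period of 24 h passed for 3 of 8 members, against 35.8% of all tested probe sets.

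These 3 were ATG8D, with a wave of 1.25 ± 0.19 from trough to peak on the log2 scale and its peak at 3.69 ± 0.64 h (SE, 22 arrays; limma adjusted p = 2.1e-05), ATG8H and ATG3. ATG8H peaked at 4.75 ± 1.04 h and ATG3 at 1.96 ± 1.60 h (limma adjusted p = 0.0213 and 0.0199). The wave of ATG3 was small, 0.32 ± 0.09 on the log2 scale, and ATG3 did not pass over the whole time course (limma adjusted p = 0.293). ATG8E had the widest wave of the members, 1.79 ± 0.66, but did not pass (adjusted p = 0.0841). No member differed between 24 h and 0 h, and neither did any of the 13648 probe sets in limma (0%). At an unadjusted p under 0.05 this held for none of the members and 366 of all probe sets.

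Of the 3 further genes that carry an ATG name as a RefSeq synonym, none passed between the parts of the cycle. They are APG8A (ATG8A), APG8H (ATG8I) and AT5G66930 (ATG101, which stabilises the kinase complex that starts autophagy). APG8A had a difference of -0.21 ± 0.09 (SE; n = 10 arrays a side; limma adjusted p = 0.0950), AT5G66930 of -0.21 ± 0.09 (adjusted p = 0.117) and APG8H of -0.26 ± 0.10 (adjusted p = 0.0593). All 3 had an unadjusted limma p under 0.05, as did 4852 of the 13648 tested probe sets in either direction. With the block APG8H passed (adjusted p = 0.0306). APG8H had 363.3 and 532.0 in the 13 h arrays, 319.3 and 500.7 in those of 14 h, and 459.1 to 678.8 at the other hours.

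Of the pathway genes without an ATG name, 2 of 13 had a named probe set and were tested, and neither passed. VPS38, a subunit of a lipid kinase complex, had 0.01 ± 0.09 between the parts of the cycle and SH3P2, a membrane-binding protein of the forming vesicle, -0.13 ± 0.16 (SE; n = 10 arrays a side; limma adjusted p = 0.961 and 0.593). Neither passed at an unadjusted p under 0.05. Of the energy signalling genes 4 of 11 were tested, and 1 of these 4 passed, where 13.1% of all tested probe sets were lower and 10.8% higher. AKINBETA1, which encodes a regulatory part of the energy sensor SnRK1, was that gene, with -1.69 ± 0.16 (SE; n = 10 arrays a side; limma adjusted p = 2.4e-06). Its arrays ran from 131.2 to 583.2 at 1 to 12 h and from 62.3 to 137.4 at 13 to 24 h, and its 0 h arrays were at 66.4 and 67.9. RAPTOR1A and RAPTOR1B, partners of the growth kinase TOR, had 0.31 ± 0.12 and 0.09 ± 0.09, and AKINBETA2 had 0.17 ± 0.10 (limma adjusted p = 0.0872, 0.519 and 0.254).

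Across the 22 arrays, the ATG8 genes whose log2 levels followed ATG8E most closely were APG8A (Pearson r = 0.61), ATG8H (r = 0.60) and ATG8F (r = 0.59). ATG8B followed it least (r = 0.01). By the means of the 11 hours the order differed, with ATG8H first (r = 0.71), then APG8A (r = 0.62) and ATG8F (r = 0.60). The closest pair among the 11 ATG genes over the 22 arrays was ATG8C and ATG8F (r = 0.87). All genes share the same arrays and their scaling, and these values are descriptions. Of the 7357 other tested probe sets with 1 named gene, those most like ATG8E were AT2G25200 (r = 0.94), AT4G17900 (r = 0.91), AT1G27290 (r = 0.89), AT1G21830 (r = 0.87) and AT5G09310 (r = 0.87). AT4G17900 had a mean of 225 at 12 h and 45.4 at 13 h, and AT1G27290 of 565 and 188. Both were lower at 13 to 24 h, with -1.11 ± 0.14 and -1.30 ± 0.09 (SE; n = 10 arrays a side; limma adjusted p = 3.2e-05 and 6.5e-08), in a comparison that their likeness to ATG8E fixes in part.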

How the data were processed

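Total RNA from leaves was measured on Affymetrix ATH1 arrays. The deposited values are intensity per probe set on a linear scale. Trimming 2% at each end leaves a mean of 100 when averaged over the arrays. The arrays may have been put on a common scale before deposit, but this average does not show it for each array. No source used here names the software. Hours came from the source names.

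Genes were named from the platform annotation and RefSeq symbols (TAIR10.1). Values were transformed to log2(value + 4.01), 10% of the median of all values, which understates changes at low intensity. Tests covered the upper 60% of probe sets by mean, 13648 in all, and all 8 members were among them. Tests used limma 3.58.1 in R 4.3.3 (1 mean per hour, eBayes with a trend, 11 residual degrees of freedom, Benjamini-Hochberg adjustment over all tested probe sets, two-sided). The difference from ATG8E was tested without a trend. A result passed at an adjusted p under 0.05. The tests were checked on simulated data with independent noise on each array. That check leaves out the pairing of the samples by replicate number. The number of arrays limits the precision.

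The replicate numbers come from the source names. Replicate differences correlated between 0.135 and 0.633 (median 0.403) over all 55 pairs of hours, so they pair the samples, and values with the replicate block are given where they change a call that is reported.

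The members and gene lists were chosen with earlier results of these data known. Every member is named, with tested genes of the lists and the 5 genes most like ATG8E. Probe sets of the members carry no suffix for shared probes, and cross-hybridisation between ATG8 genes was not tested.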

Additional observations from a re-analysis of the deposited data

How the results depend on the processing

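The fall of ATG8E between the parts of the cycle kept its direction and passed under all alternatives run, with -1.79 to -1.57 when 1 array was left out. The 4 members lower at 13 to 24 h were ATG8D, ATG8E, ATG8F and ATG8H under all settings but 3. With the upper 40% of probe sets ATG8H was not tested, with the hours of the age label ATG8F did not pass, and with the replicate block ATG8C was added. The members that changed over the time course went from 3 to 5 with the replicate block, and those higher at 1 to 12 h than at 0 h from 1 to 2. Shares of all tested probe sets were taken only without the block, so these gains have no share beside them. Those higher at 12 h than at 0 h went from 2 to 1 without a filter, with the hours of the age label and without the 3 arrays of highest actin ratio, which were chosen after seeing the data. Without these arrays, those lower at 13 h than at 12 h went from 2 to 1, and those lower at 13 to 16 h than at 20 and 24 h from 4 to 1. The last count was 2 with equal array medians. With 1 array left out, the counts ran from 1 to 2 (higher at 12 h than at 0 h), 0 to 1 (lower at 12 h), 1 to 2 (lower at 13 h than at 12 h) and 2 to 6 (lower at 13 to 16 h). The cause was not tested. Some differences, none of them past the threshold, changed sign. With equal array medians ATG8E stood at 0.0039 at 13 to 16 h against 20 and 24 h, and ATG8G at 0.0091 at 12 h against 0 h. ATG8G at 1 to 12 h against 0 h was -0.0099 after quantile normalization and -0.014 without the 3 arrays. With 1 array left out, that value ran from -0.034 to 0.042, that of ATG8B from -0.017 to 0.097 and that of ATG8D from -0.39 to 0.17. At 13 h against 12 h ATG8B ran from -0.36 to 0.12 and ATG8D from -0.66 to 0.078. This difference for ATG8D was -0.29 ± 0.24 (SE, n = 2) with all arrays, and it changed sign without 12 h series 1. At 12 h against 0 h ATG8G ran from -0.13 to 0.11 and ATG8H from -0.0020 to 0.32. Between the parts of the cycle ATG8G ran from -0.13 to 0.0098, and at 13 to 16 h against 20 and 24 h ATG8E ran from -0.30 to 0.079. Fits that leave out an array assume that the lone array of that hour varies like the others. Intensities under 29.2, which ATG8H reached, limit the size of its differences.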

Other observations

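Between the parts of the cycle, 2 of 5 tested vacuolar proteases, which break down what autophagy delivers, went the other way from ATG8E. Of 9 listed genes 6 had a named probe set and 5 were tested, of which 2 were higher at 13 to 24 h than at 1 to 12 h and none was lower. Of all tested probe sets 10.8% were higher. BETA-VPE, a vacuolar processing enzyme, ran from 11.7 to 52.7 at 1 to 12 h and from 45.3 to 108.0 at 13 to 24 h, a difference of 1.34 ± 0.18 (SE; n = 10 arrays a side; limma adjusted p = 4.8e-05). PASPA2, an aspartic protease, ran from 12.2 to 41.5 and from 26.4 to 71.4, a difference of 0.57 ± 0.16 (limma adjusted p = 0.0185). The medians at 1 to 12 h, 22.1 for BETA-VPE and 28.3 for PASPA2, lie under the highest bacterial control of 29.2, so the sizes of these differences are uncertain. GAMMA-VPE (0.35 ± 0.31), CATHB3 (-0.01 ± 0.16) and PASPA1 (0.07 ± 0.06) did not pass (limma adjusted p between 0.451 and 0.971). At 13 to 16 h against 20 and 24 h, 1 of the 5 was lower and none higher, where 12.3% of all tested probe sets were lower. This was CATHB3, at -0.77 ± 0.23 (SE, limma adjusted p = 0.0246). With the replicate block GAMMA-VPE was lower there too (-1.11, limma adjusted p = 0.00078). Of 14 genes raised in darkness or senescence 2 were tested and neither passed, WRKY53 at -0.48 ± 0.19 and SAG101 at -0.27 ± 0.21 (limma adjusted p = 0.0879 and 0.372), but WRKY53 passed with the replicate block (adjusted p = 0.00119).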
